A study of Mus musculus with 3 samples.

Results

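Skeletal muscle fibres fire and reset their action potentials with a small set of channels and pumps in the sarcolemma, the surface membrane of the fibre. Sodium channels carry the upstroke, chloride and potassium channels hold and restore the resting potential, and the sodium pump rebuilds the sodium and potassium gradients that each spike runs down. The pump is made of a catalytic alpha subunit and a beta subunit that brings it to the membrane, and FXYD proteins tune its activity.

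The 6 genes examined here cover these roles, and were chosen by symbol among 21613 genes with a RefSeq symbol on the array. Scn4a encodes the pore of the muscle sodium channel NaV1.4. Clcn1 encodes the muscle chloride channel ClC-1, whose loss causes myotonia. Kcnj11 encodes Kir6.2, the pore of the ATP-sensitive potassium channel. Atp1b1 and Atp1b2 encode the beta 1 and beta 2 subunits of the sodium pump, and Fxyd1 encodes phospholemman, a regulator of the pump. They were measured by 7 probes, 1 spot each, and Kcnj11 alone had more than 1 probe. The names come from RefSeq accessions in the scanner files.

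The muscle is labelled SOL, taken here to mean the soleus, and came from male C57BL/6 mice, 8 weeks old and fed chow. Wild-type mice (WT) were compared with mice of genotype Mettl21cLacZ/LacZ (KO), in which Mettl21c, a lysine methyltransferase gene, carries LacZ on both alleles. The labels do not say in which cells the allele acts, nor whether a replicate was 1 mouse or several. Each genotype had 3 biological replicates, and each of 3 arrays compared 1 KO sample, labelled with Cy5, with 1 WT sample, labelled with Cy3. No array had the dyes swapped, so dye and genotype cannot be told apart.

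Each array had 59305 non-control spots, and KO gave 22.5% to 22.9% of them well above background and WT 20.4% to 23.6%. The labelled tissue was checked against 12 muscle fibre markers, of which 9 were well above background in all 6 channels and 0 in none. The targeted gene Mettl21c fell in KO by 2.45 in log2 (SD 0.48 over 3 arrays, limma adjusted p = 0.0175). Its KO signal was well above background on array 1 only, so the size of the fall was not measured on the others. The local background of the spot on array 1 carried an outlier flag, and Mettl21c was not tested with such spots left out. The sign was negative in all 17 alternatives that gave a value, with -6.23 in the processed signals, and 12 of them passed the threshold. The adjusted p was 0.0680 in the processed signals, 0.172 with no filter on dim probes, 0.614 with the channels as separate samples and 0.0557 without array 3. Array 3 stood apart at the dim end. On it the 95th percentile of the 308 negative control spots was a processed signal of 296 for WT and 395 for KO, against 23.8 to 33.1 on the other arrays. Precision is limited throughout by having 3 arrays.

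Across the array, 3 of 7424 genes or unnamed transcripts passed a limma adjusted p of 0.05, which is 0.0404% of those tested, and all 3 were lower in KO. Of the 6 genes, 2 could be tested, Scn4a and Fxyd1, and 0 passed. The test needed a probe with a usable spot on every array and, in at least 1 channel, a signal well above background on every array by the scanner software's own call. Clcn1, Kcnj11, Atp1b1 and Atp1b2 missed this filter, and are given by their signals. Signals below are the scanner software's processed signals, on a linear scale with no unit, and are compared only within a probe. Ratios are log2 ratios of KO over WT after background correction and loess normalisation.

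**Figure D1:**
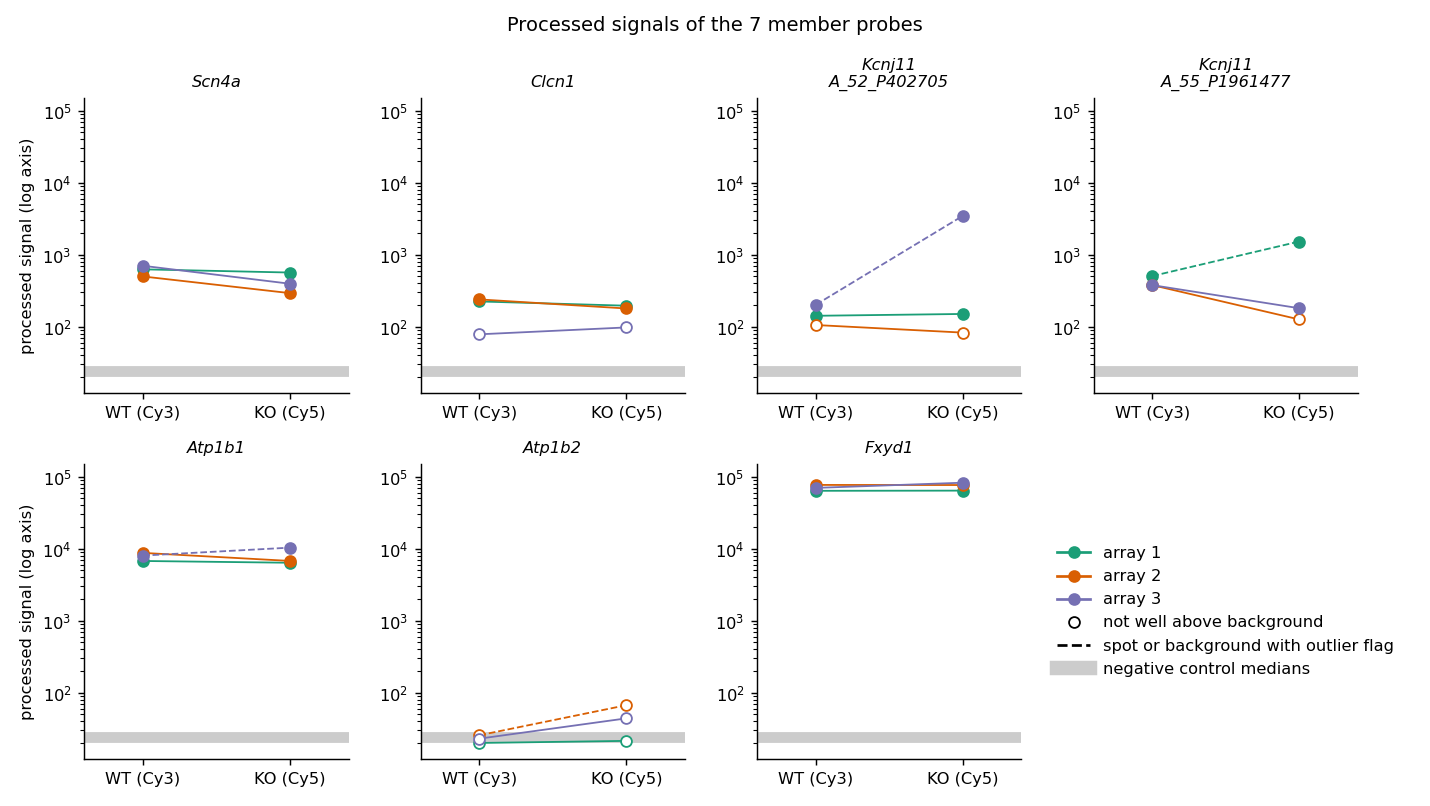
Processed signal (log axis, linear signal with no unit) of the 7 probes in the WT and KO sample of each array, joined by a line that is dashed where a spot or its background carried an outlier flag, with open points not well above background and the negative control medians as a grey band. The Fxyd1 signals lie between 63404 and 82180, and the Atp1b2 signals between 20.0 and 66.8, never well above background.

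The sodium channel pore gene Scn4a was lower in KO than in WT on every array by its processed signal, but the difference did not pass the test. The WT signals were 625, 498 and 700 on arrays 1 to 3, and the KO signals were 564, 292 and 395. All 6 values were well above background by the scanner software's call, though on array 3 the KO signal was about equal to the 95th percentile of that array's KO negative controls, 395. The genotypes overlapped, because the KO sample of array 1 lay above the WT sample of array 2. After loess the log2 ratios were -0.01, -0.21 and -0.35, with a mean of -0.19 (SD 0.17, n = 3 arrays) and a 95% interval of -0.39 to 0.01. The limma p was 0.0607 and the adjusted p was 0.396.

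The size of the Scn4a ratio depended on the processing. In the processed signals the mean was -0.58 on the log2 scale (SD 0.38, n = 3), with a limma adjusted p of 0.428, with background and normalisation both different. Changing the background step alone gave -0.32 with offset 16 in place of 50, and -0.29 with no subtraction. The sign was negative in all 19 alternatives, and the threshold was passed in 1 of them, median centring without loess, where the ratio was -0.51. There the median of all genes tested was -0.45, and 4917 of 7424 genes passed as lower. Alternatives of filter, probes, moderation and pairing could not change the ratio, since Scn4a has 1 probe. The series matrix repeated the ratio of the processed signals.

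Fxyd1, the phospholemman gene, had a positive ratio after loess that did not pass the test and that was negative under either centring without loess. Its WT signals were 63404, 76552 and 69625, and its KO signals were 63791, 76257 and 82180. The signals of arrays 1 and 2 were nearly equal within each array, and on array 3 the KO signal was the higher one by a wider margin. The genotypes overlapped. After loess the log2 ratios were 0.22, 0.34 and 0.62, with a mean of 0.39 (SD 0.20, n = 3) and a 95% interval of 0.18 to 0.61. The limma p was 0.00396 and the adjusted p was 0.151.

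The Fxyd1 ratio moved with the intensity of the probe and with the normalisation. Its probe was in the brightest decile of the genes tested, where the median log2 ratio of 742 genes was 0.10 after loess and 68.7% were positive, against 49.1% positive over all genes tested. In the processed signals the median of that decile was -0.0073, and the Fxyd1 ratio was 0.08 (SD 0.14, n = 3, limma adjusted p = 0.809). Centring each array on its median without loess gave Fxyd1 -0.82, and centring on the tested probes gave -0.38, both past the threshold with limma adjusted p = 0.00197 and 0.0324. Median centring moved the median of all genes tested to -0.45, from -0.003, and 4917 of 7424 genes passed as lower. With centring on the tested probes 1644 passed as lower and 1014 as higher. The part of intensity in the Fxyd1 ratio was not tested.

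**Figure D2:**
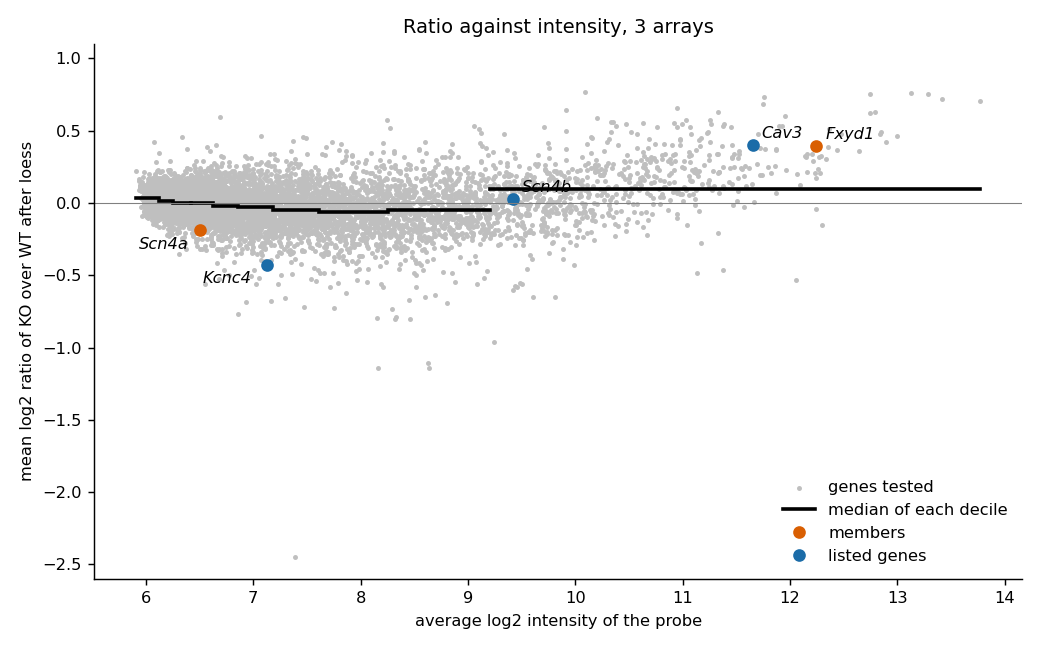
Mean log2 ratio of KO over WT after loess (vertical axis) against average log2 intensity (horizontal axis) for the genes tested on 3 arrays, with the median of each decile as a black line. Fxyd1 and Cav3 lie at the bright end, where the median of the brightest decile is 0.10, and Scn4a lies among dim probes at an average log2 intensity of 6.50.

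Both tested genes had ratios of 1 sign on all 3 arrays, as did 35.8% of all genes tested. Fxyd1 but not Scn4a had an unadjusted limma p under 0.05, as did 13.4% of all genes tested, 438 higher and 559 lower in KO. Neither had processed KO and WT signals that did not overlap, which held for 6.37% of all genes tested.

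The chloride channel gene Clcn1 was measured on arrays 1 and 2, where its ratio after loess was near 0 and its processed signals were lower in KO. Its WT signals were 224, 239 and 78.3, and its KO signals were 195, 179 and 97.5. On array 3 it was not well above background in either channel, and its signals there were below the 95th percentile of that array's negative controls. The processed log2 ratios were -0.20 and -0.42 on arrays 1 and 2, and 0.32 on array 3. After loess the log2 ratios were 0.06, -0.03 and 0.05 (mean 0.02, SD 0.05, n = 3), and the processed signals gave a mean of -0.10 (SD 0.38). Both means include array 3, and they differ in sign.

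Kcnj11, which encodes the Kir6.2 pore, was read by 2 probes, and they disagreed. The first, A_52_P402705, had WT signals of 142, 105 and 202 and KO signals of 150, 82.7 and 3452. The KO value of array 3 stood far above the other 5, and array 2 was not well above background in either channel. The WT signal of array 3 was below the 95th percentile of that array's WT negative controls, 296. Around the KO spot of array 3 the local background was 118, where the 99th percentile of that array was 21, and the background carried an outlier flag. The log2 ratios were -0.02, 0.08 and 1.33, with a mean of 0.46 (SD 0.75, n = 3). Leaving out the spot with that flag, a step added after seeing the data, gave a mean of 0.03 (SD 0.07, n = 2).

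The other Kcnj11 probe, A_55_P1961477, had WT signals of 505, 377 and 377 and KO signals of 1521, 126 and 180. The KO spot of array 1 carried a flag for uneven pixels and was left out, and the KO spot of array 2 was not well above background. Of the remaining arrays both had the KO sample lower, with log2 ratios of -0.37 and -0.19 (mean -0.28, SD 0.12, n = 2 arrays). The KO signal of array 3 was below the 95th percentile of that array's KO negative controls, 395. With the uneven spot kept the mean was -0.18 (SD 0.20, n = 3, limma adjusted p = 0.470). No single Kcnj11 value is given for the gene, because its probes gave opposite signs.

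The beta subunit genes of the sodium pump differed in detection. Atp1b1 had WT signals of 6729, 8713 and 8000 and KO signals of 6355, 6739 and 10302, all well above background. The KO sample was lower on arrays 1 and 2 and higher on array 3, and the genotypes overlapped. The WT spot of array 3 carried a flag for uneven pixels and was left out, so the log2 ratios were -0.14 and -0.46 (mean -0.30, SD 0.22, n = 2 arrays). With that spot kept the mean was -0.10 (SD 0.39, n = 3, limma adjusted p = 0.810).

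Atp1b2 was never well above background, in WT or in KO. Its WT signals were 20.0, 25.6 and 22.9, beside negative control medians of 20.9, 24.9 and 24.3. Its KO signals were 21.4, 66.8 and 43.9, beside control medians of at most 27.4. The local background of the highest of these signals, on array 2, carried an outlier flag. On array 3 the KO signal was below the 95th percentile of the KO negative controls, 395, and on array 2 above it, 33.1. No fold is given for Atp1b2, since neither genotype was well above background.

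**Figure D3:**
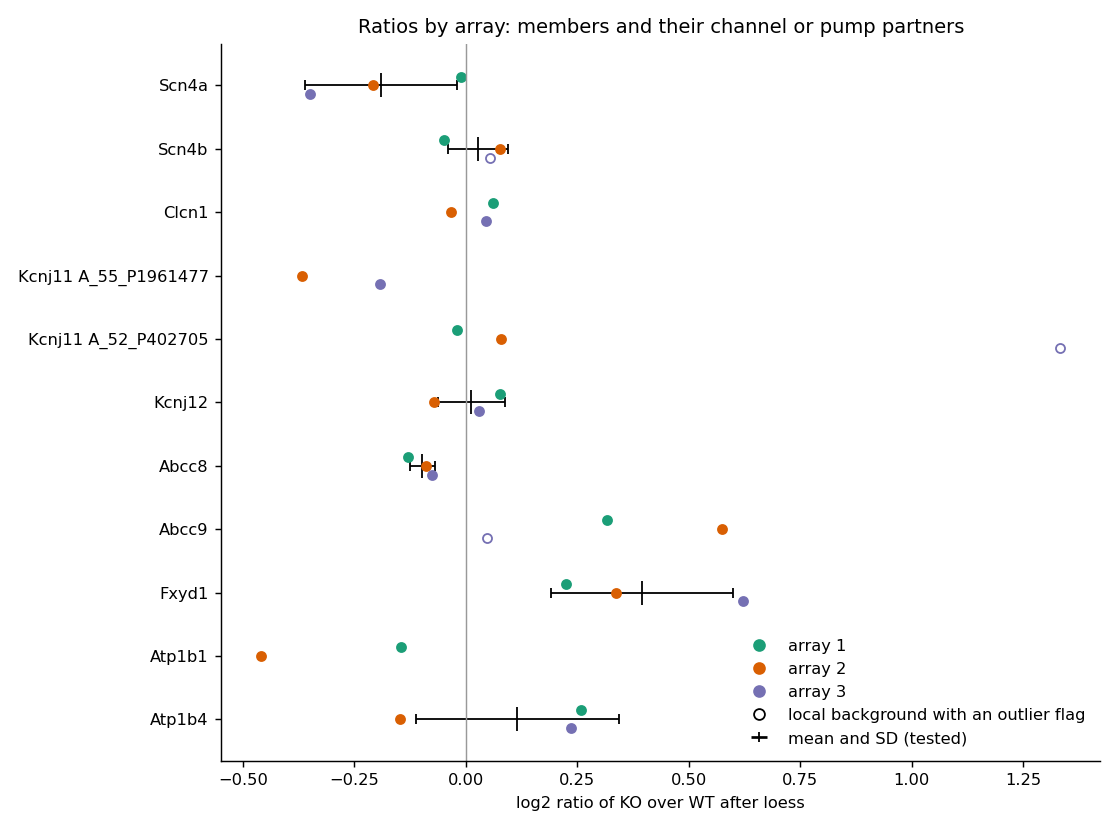
Log2 ratio of KO over WT after loess (horizontal axis) for the probes of the members other than Atp1b2 and of 5 partner or related genes. Each array gives 1 point, open where the local background carried an outlier flag, and bars give the mean and SD of tested probes. The 3 Fxyd1 points lie at 0.22, 0.34 and 0.62, the 3 Scn4a points at -0.01, -0.21 and -0.35, and 1 Kcnj11 point lies far to the right at 1.33.

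Partners and related genes of the members were read from the same fit. Atp1b3, another beta subunit gene of the sodium pump, was well above background on 1 array in each genotype. Atp1b4, a beta-like gene of muscle, had WT signals of 2120, 2405 and 1144 and KO signals of 2781, 1857 and 1526, which overlapped. Its mean log2 ratio was 0.12 (SD 0.23, limma adjusted p = 0.671), positive on arrays 1 and 3, negative on array 2 and negative under both centrings.

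Scn4b, an auxiliary subunit gene of the sodium channel, had WT signals of 7331, 10460 and 12284 and KO signals of 7796, 11469 and 12048, which overlapped. Its mean log2 ratio was 0.03 (SD 0.07, n = 3, limma adjusted p = 0.907), and was negative under both centrings.

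Among potassium channel partners, the sulfonylurea receptor gene Abcc8 had a mean log2 ratio of -0.10 (SD 0.03, n = 3, limma adjusted p = 0.583), which became 0.0041 under centring on tested probes. Kcnj12, an inward rectifier, had a mean of 0.01 (SD 0.08, adjusted p = 0.963), and was negative in 3 alternatives. Kcnj8 and Kcnj2, a vascular KATP pore and the inward rectifier Kir2.1, were not well above background on any array. Abcc9, the SUR2 receptor that pairs with Kir6.2 in muscle, had WT signals of 1819, 2230 and 181 and KO signals of 2248, 3816 and 80.1, and was not well above background on array 3. Its KO sample was the higher one on the arrays that measured it. The vascular smooth muscle markers, of which 6 of 8 were well above background in all 6 channels and 0 in none, summed to processed signals of 21083 to 46017 in WT and 22670 to 25602 in KO. They include Des, which is also among the muscle fibre markers, so the sum does not read vascular cells alone. The brightest markers weigh most in such a sum. Their part in the Abcc9 and Kcnj8 signals was not tested. In bulk muscle RNA, fewer cells of a type and less RNA per cell cannot be told apart.

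The wider set of channel, pump, transporter and scaffold genes was described by 8 lists of 80 genes, of which 37 were tested and 0 passed. Their median log2 ratio was -0.04 with 43.2% positive, beside -0.003 and 49.1% over all genes tested. An unadjusted p under 0.05 was found for 8 of the 37, or 21.6%, against 13.4% of all genes tested. Processed KO and WT signals did not overlap for 1 of the 37, or 2.70%, against 6.37%. It was Ank2, an ankyrin that anchors membrane proteins, with WT signals of 177, 218 and 224 and KO signals of 278, 267 and 248. On array 3 both Ank2 signals were below the 95th percentile of the negative controls. By list, 2 of 5 sodium channel subunits were tested (median -0.08), 5 of 11 pump subunits and regulators (0.12), 4 of 11 chloride channels (-0.08), 2 of 8 KATP and inward rectifier channels (-0.04), 6 of 17 other potassium channels (-0.02), 5 of 7 L-type calcium channel subunits (-0.15), 4 of 11 other ion transporters (-0.17) and 9 of 10 scaffolds (-0.004). The medians of the calcium channel and transporter lists were negative in all 19 alternatives, and that of the sodium channel list in 18, with 0.0025 under no filter. The tested genes of the pump list were Atp1b4, Fxyd1, Fxyd2, Fxyd5 and Fxyd6. The median was the value of Atp1b4, a beta-like gene rather than an established pump subunit. No alpha subunit gene entered the list median, nor did Atp1b1, Atp1b2 or Atp1b3, so it does not read the subunits of the pump itself. The pump list median was negative under both centrings, with -0.47 and -0.029, and it was smaller with an array left out, at 0.045 without array 1 and 0.014 without array 3. The L-type calcium channel median was -0.059 without array 3. The tested genes of the chloride list were Clcn3, Clcn4, Clcn7 and Ano1, without Clcn1, and not every listed gene acts at the sarcolemma. The chloride list kept its sign in 17 of 19, with 0.0078 without array 3. The KATP, other potassium and scaffold lists each kept theirs in 13, with highest values of 0.095, 0.14 and 0.0088.

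**Figure D4:**
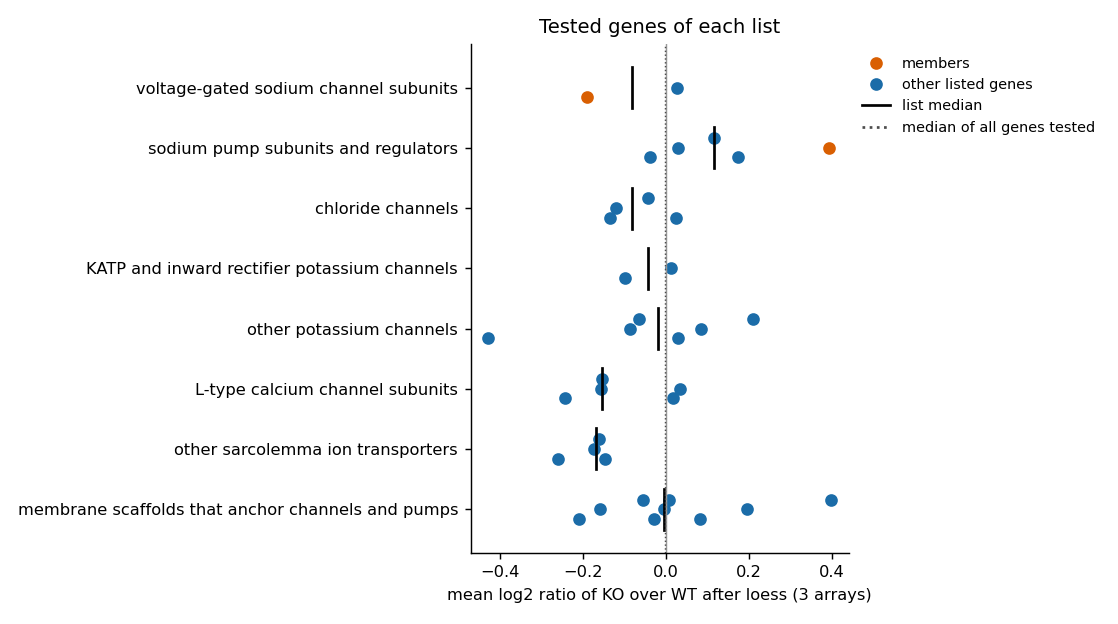
Log2 ratio of KO over WT after loess of the tested genes in 8 lists of channel, pump, transporter and scaffold genes, with each list's median. The list medians lie between -0.17 (other ion transporters) and 0.12 (pump subunits and regulators, the value of Atp1b4), around a median of -0.003 over all genes tested.

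The listed genes with an unadjusted p under 0.05, none past the adjusted threshold, were Fxyd1 and 7 others. Kcnc4, a Kv3.4 potassium channel pore, had log2 ratios of -0.28, -0.36 and -0.64 (mean -0.43, SD 0.19, n = 3, limma adjusted p = 0.123), lower in KO on every array. Its sign was negative in all 19 alternatives, and it passed the threshold in 3, robust moderation (adjusted p = 0.0347) and the centrings. Median centring called 4917 of 7424 genes lower, and centring on tested probes 1644. Cav3, the muscle caveolin, had 0.48, 0.41 and 0.32 (mean 0.40, SD 0.08, adjusted p = 0.0898). Cav3 passed as higher with array weights (adjusted p = 0.0449) and as lower under both centrings (-0.75 and -0.31, adjusted p = 0.00124 and 0.0370). Its sign was also negative in the processed signals and the series matrix (-0.06), and its probe too lies in the brightest decile. The scaffold gene Ank1 had a mean of 0.20 (SD 0.10, adjusted p = 0.314) and the calcium-activated potassium channel gene Kcnma1 a mean of 0.21 (SD 0.07, adjusted p = 0.270). Ank1 was negative under both centrings and Kcnma1 under median centring. Cacng1, the gamma 1 subunit of the L-type calcium channel, had -0.24 (SD 0.18, adjusted p = 0.299), Slc12a4, a potassium chloride cotransporter, -0.17 (SD 0.08, adjusted p = 0.344), and Sptan1, an alpha spectrin, -0.21 (SD 0.18, adjusted p = 0.361).

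Sodium channel and pump subunit levels differ between fibre types, so the fibre markers were set beside the members. The fast fibre markers (11 of 12 well above background in all 6 channels, 0 in none) summed to 254827 to 401850 in WT and 187713 to 453444 in KO. The slow fibre markers (10 of 11, 0 in none) summed to 290340 to 387562 in WT and 323092 to 369175 in KO. Both sums overlapped between the genotypes. The median log2 ratio was -0.15 over the 9 fast markers tested and 0.18 over the 8 slow ones. On arrays 1 to 3 it was -0.15, -0.02 and -0.09 for the fast markers and 0.22, -0.01 and 0.31 for the slow ones. Of the tested markers, 3 fast ones were positive (up to 0.29) and 2 slow ones negative (down to -1.14). At an unadjusted limma p under 0.05 were 5 of 9 fast and 5 of 8 slow markers, against 13.4% of all genes tested, and 0 passed the adjusted threshold. Nerve and Schwann cell markers, where sodium channels and Atp1b2 are also found, were well above background in all 6 channels for 2 of 10, and Prx, Nefl and Nefh never were. Their sums were 1601 to 10721 in WT and 1803 to 6835 in KO. The red blood cell markers (4 of 6, 0 in none) summed to 30974 to 41714 in WT and 49347 to 120189 in KO, which did not overlap. The adipocyte markers (4 of 6, with Cidec never above background) summed to 4728 to 7078 in WT and 7498 to 8226 in KO, which did not overlap either. Gene by gene, signals did not overlap for 0 of 3 tested red cell and 2 of 4 tested adipocyte markers, against 6.37% of all genes tested. An unadjusted limma p under 0.05 was found for 2 of 3 and 0 of 4, against 13.4%. Endothelium sums (9973 to 10783 in WT, 8538 to 17778 in KO) overlapped, as did fibroblast sums (7938 to 31431 and 10051 to 25139). The macrophage markers (5 of 8, with Ptprc never above background) summed to 7725 to 15868 in WT and 6935 to 10914 in KO, and all 6 tested had a negative mean log2 ratio, with a median of -0.24. Their median was -0.31, -0.27 and 0.04 on arrays 1 to 3. Only 2 of the 6, or 33.3%, had 1 sign on all 3 arrays, against 35.8% of all genes tested. The part of these cell types in the Scn4a and Fxyd1 ratios was not tested.

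Across the 19 alternatives Fxyd1 kept its sign in 17, with values from -0.82 to 0.48, and Scn4a in 19, with values from -0.58 to -0.07. These counts include the filter, probe, moderation and pairing alternatives, which could not change the ratio of a gene with 1 probe. Leaving out arrays 1, 2 or 3 gave Fxyd1 0.48, 0.42 and 0.28 and Scn4a -0.28, -0.18 and -0.11, with 0 passing the limma threshold. Array 3 carried the farthest value from 0 of either gene.

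**Figure D5:**
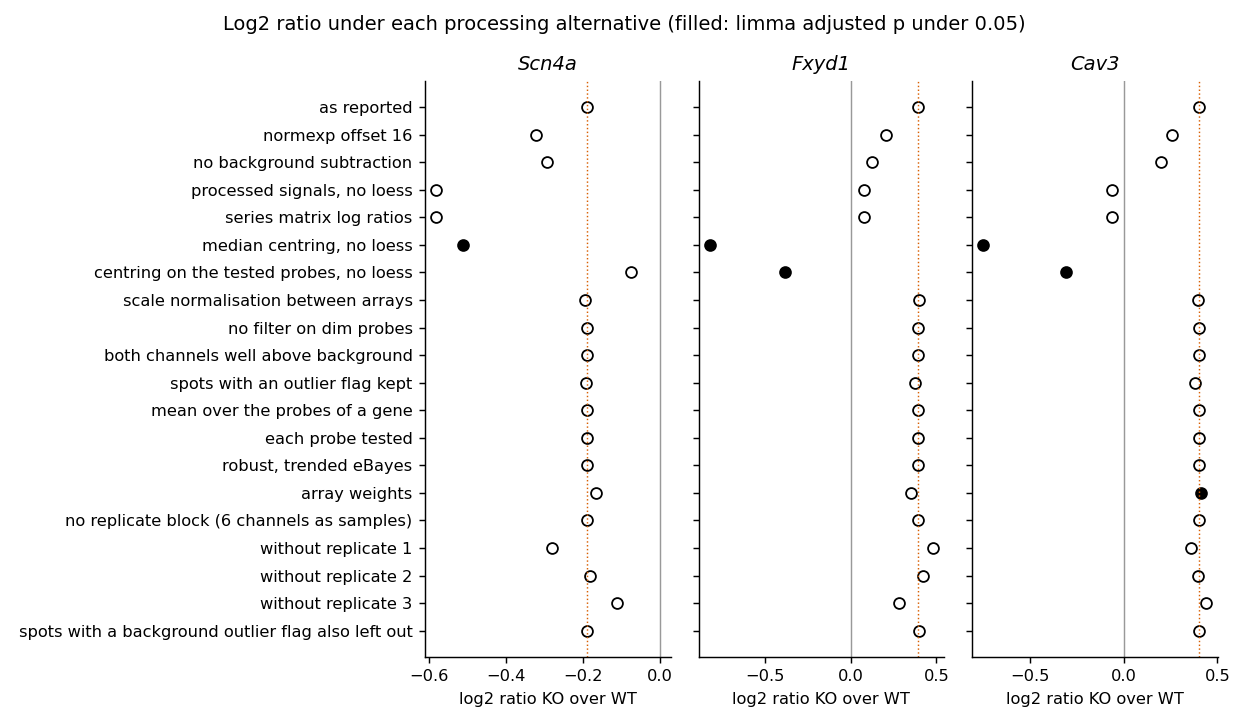
Mean log2 ratio of KO over WT of Scn4a, Fxyd1 and the listed gene Cav3 (horizontal axis) under the reported processing and each of the 19 alternatives (vertical axis), with filled points past a limma adjusted p of 0.05. Scn4a stays below 0 throughout, from -0.58 to -0.07, and Fxyd1 is below 0 under the 2 centrings without loess only.

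By the distance between their 3 log2 ratios, the tested genes nearest to Scn4a were Stub1 (0.0287) and Snapin (0.0439), and those nearest to Fxyd1 were Uqcrh (0.0483) and Etfa (0.0809). Stub1 had -0.01, -0.24 and -0.34 on arrays 1 to 3, and Uqcrh had 0.18, 0.34 and 0.63. None of these 4 passed the threshold, and each turned sign in at least 2 alternatives.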

How the data were processed

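The deposited scanner files give spot intensity for the Cy3 and Cy5 channels with local backgrounds and flags. Per the file headers, their processed signal had background removed and dyes normalised. The headers name Feature Extraction 12.0.3.1, and the processing notes of the submitters give version 11.5. The deposited series matrix holds log10 ratios, used as an alternative. The genome build is not given in the sources used here.

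Median intensities were corrected with normexp (offset 50) and normalised by loess within arrays in limma 3.58.1 (R 4.3.3, files read with the data.table package, version 1.17.8). Spots carrying an outlier flag were dropped. Of 55681 probes, 8391 were tested, and the brightest of a gene's tested probes represented it. Of 29472 probes with a RefSeq accession, 28664 gained a symbol. The mean ratio of 3 arrays, all on 1 slide, was tested against 0 (eBayes, Benjamini-Hochberg over 7424, threshold 0.05, both directions). The steps were checked on simulated data, with planted changes larger than the Scn4a and Fxyd1 ratios and no dye difference that varied with intensity. That check therefore does not bear on ratios of their size or on their dependence on intensity.

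Members and lists were chosen with earlier results of these data known. Some listed genes are not reported here. Named are the members, the targeted gene, partners from the lists, any tested gene of a list, and the 2 nearest genes by Euclidean distance. Alternatives changed background, normalisation, filter, flags, probes, moderation, weights, pairing and arrays.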

Additional observations from a re-analysis of the deposited data

How the results depend on the processing

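With 3 arrays on 1 slide, few genes passed, and the number of calls moved with the processing far more than the signs of Scn4a and Fxyd1 did. Genes lower in KO, 3 as reported, numbered 22 with offset 16, 5 with no background subtraction, 0 with the processed signals or the series matrix, 1 with scale normalisation, flagged spots kept, the mean over probes or each probe tested, 0 with no filter or with both channels above background, and 0 with background flags also left out, an alternative added after seeing the data. Robust moderation gave 44, array weights 17, median centring 4917, centring on tested probes 1644, and leaving out an array 0 to 11. Genes higher in KO, 0 as reported, numbered 3, 41, 45 and 1014 with offset 16, robust moderation, weights and centring on tested probes, and 0 to 5 without an array. Of the 6 genes, 2 passed with median centring and 1 with centring on tested probes. Each array pairs a KO with a WT sample. With no replicate block, the 6 channels as samples, limma called 0 genes lower, and 251 genes had an unadjusted p under 0.05.

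With median centring Scn4a had -0.51 and Fxyd1 -0.82, and with centring on tested probes Fxyd1 had -0.38. Clcn1 had 0.088 with no background subtraction, -0.10 with the processed signals and the series matrix, -0.15 with median centring and 0.29 with centring on tested probes. The first Kcnj11 probe had 1.28 and 1.27 with the processed signals and the series matrix. The other had -0.56 with offset 16, -0.48 with no subtraction, -1.32 with the processed signals and the matrix, and -0.49 and -0.060 with the centrings. Atp1b1 had -1.21 and -0.69 with the centrings. For Atp1b2, never well above background, no ratio is given under any setting.

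Signs turned for these partners and near genes. Under the median and tested-probe centrings, Atp1b4 had -0.47 and -0.029, Scn4b -0.85 and -0.41, Ank1 -0.78 and -0.34, Cav3 -0.75 and -0.31, Uqcrh -0.64 and -0.20, and Etfa -0.50 and -0.064. Kcnj12 had -0.25 and Kcnma1 -0.35 with median centring, and Abcc8 had 0.0041 with tested-probe centring. In the processed signals and the matrix Cav3 had -0.061 and Stub1 0.38. Kcnj12 had -0.0011 with array weights and -0.020 to 0.053 with an array left out (negative without array 1), and Snapin had 0.080 with no filter and -0.27 to 0.12 with an array left out (positive without array 3). The causes were not tested. Median centring moved the median of all genes tested to -0.45, and centring on tested probes left it at -0.012. Signals near the background limit Clcn1, Kcnj11 and Atp1b2.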

Other observations

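Beside the members, Kcnma1 was read by 4 probes. The brightest tested probe had WT signals of 1586, 1391 and 1764 and KO signals of 2107, 1676 and 2007, with the KO sample higher on each array and the genotypes overlapping. A brighter probe, A_51_P274073, was not tested because its spot on array 3 carried an outlier flag. Its WT signals were 6632, 4816 and 4321 and its KO signals 8021, 4817 and 4771. Its log2 ratios after loess were 0.30 and -0.03 on arrays 1 and 2. Probe A_51_P187352 was never well above background in WT. Another tested Kcnma1 probe, A_55_P2378486, had WT signals of 112, 134 and 48.2 and KO signals of 227, 247 and 197, with a mean log2 ratio of 0.09 (SD 0.07, n = 3). Its WT signal was well above background on array 2 only, and on array 3 both signals were below the 95th percentile of the negative controls.

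Fxyd6, another FXYD gene, had WT signals of 66151, 69902 and 92945 and KO signals of 55724, 66682 and 70420, lower in KO on each array. Its loess log2 ratios were 0.19, 0.46 and -0.13, so its processed and loess ratios had opposite signs on arrays 1 and 2.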
